A study of Mus musculus with 6 samples.

Results

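The T cell and natural killer (NK) cell genes examined here are a list of 31 symbols for the T cell receptor, its coreceptors and signalling proteins, surface and costimulatory receptors, NK receptors, cytotoxic granule proteins and lineage regulators. Members were all probes whose symbol in the deposited probe table is on that list, which gave 51 probes for 29 genes among 25697 probes for 18002 symbols. No probe carried the symbol Cd5 or Gzma. Total RNA from colon mucosa was labelled with Cy3 and hybridised to bead arrays, 1 array per sample, with 3 samples from wild type (WT) C57BL/6 mice of Taconic Farm. The other 3 came from miR-21 knockout (KO) mice, which carry a deletion of microRNA-21 in a C57BL/6 background and were a gift of another laboratory. No treatment was given to either group, the miR-21 KO mice are described as free of spontaneous colitis, and the labels give no age or sex. The series concerns microRNA-21 deletion and colitis in mice, and the comparison asks how far these genes differed in untreated mice. Every KO mouse came from a different source than every WT mouse, so genotype and source cannot be told apart in any result here. The labels do not tie each replicate to its own animal. The p-values therefore speak only of the scatter among these arrays, and some of that scatter may be technical.

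T cells recognise peptides through a clonal receptor that signals through the CD3 chains. The kinase Lck phosphorylates those chains, Zap70 binds to them, and Lat gathers the proteins that carry the signal onward. NK cells lack a clonal receptor and read surface molecules of their targets through receptors such as CD94, and both cell types kill with perforin and granzymes held in granules. The colon mucosa holds T cells within the epithelium, in the lamina propria and in lymphoid follicles. The deleted microRNA is shown because its absence defines the KO group, and the array has no probe for it. Its dominant mature strand, given by RefSeq at chr11:86584120-86584141 on the minus strand (GRCm38.p6), is printed with the seed, bases 2 to 8, in capitals.
mmu-miR-21a-5p: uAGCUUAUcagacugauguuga

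Arrays of the 2 groups were of similar brightness, with a median intensity of 97 to 115, and each array detected (p-value under 0.05 against negative controls) 50.4 to 54.6 percent of its probes. Values below are log2 intensities after background correction and quantile normalization with an offset of 16, which compresses low values, so that fold changes of dim probes are understated. Differences are miR-21 KO minus WT with the standard error of a limma fit on all 6 arrays, and the p-values were adjusted by Benjamini-Hochberg over the 13737 probes detected on at least 3 arrays. "Fell" and "rose" mean an adjusted p under 0.05. Of the 10 colon epithelium genes measured, keratin 8 (Krt8), keratin 20 (Krt20), villin (Vil1) and E-cadherin (Cdh1) were among those detected on all 6 arrays. Slc26a3 of that list was detected on only 2 WT and 2 KO arrays. The samples did not hold epithelium alone, since the smooth muscle gene Acta2 had means of 13.71 in WT and 14.25 in KO.

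Of the 51 probes, 19 were detected on no array, 9 on 1 or 2 arrays and 23 on at least 3, and these 23 probes for 18 genes entered the test. Among them, 15 were detected on all 6 arrays. Another 7 had a signal on every WT array but on no more than 2 KO arrays, and 1 was detected on fewer WT than KO arrays. A probe that passes this filter mainly through the WT arrays is one that was low in KO, so counts over the tested probes are descriptions. The plot of detection by probe shows which members could be measured. The 28 untested probes read between 4.14 and 4.85, where the lowest detected value was 4.52 to 4.65 depending on the array.

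**Figure D1:**
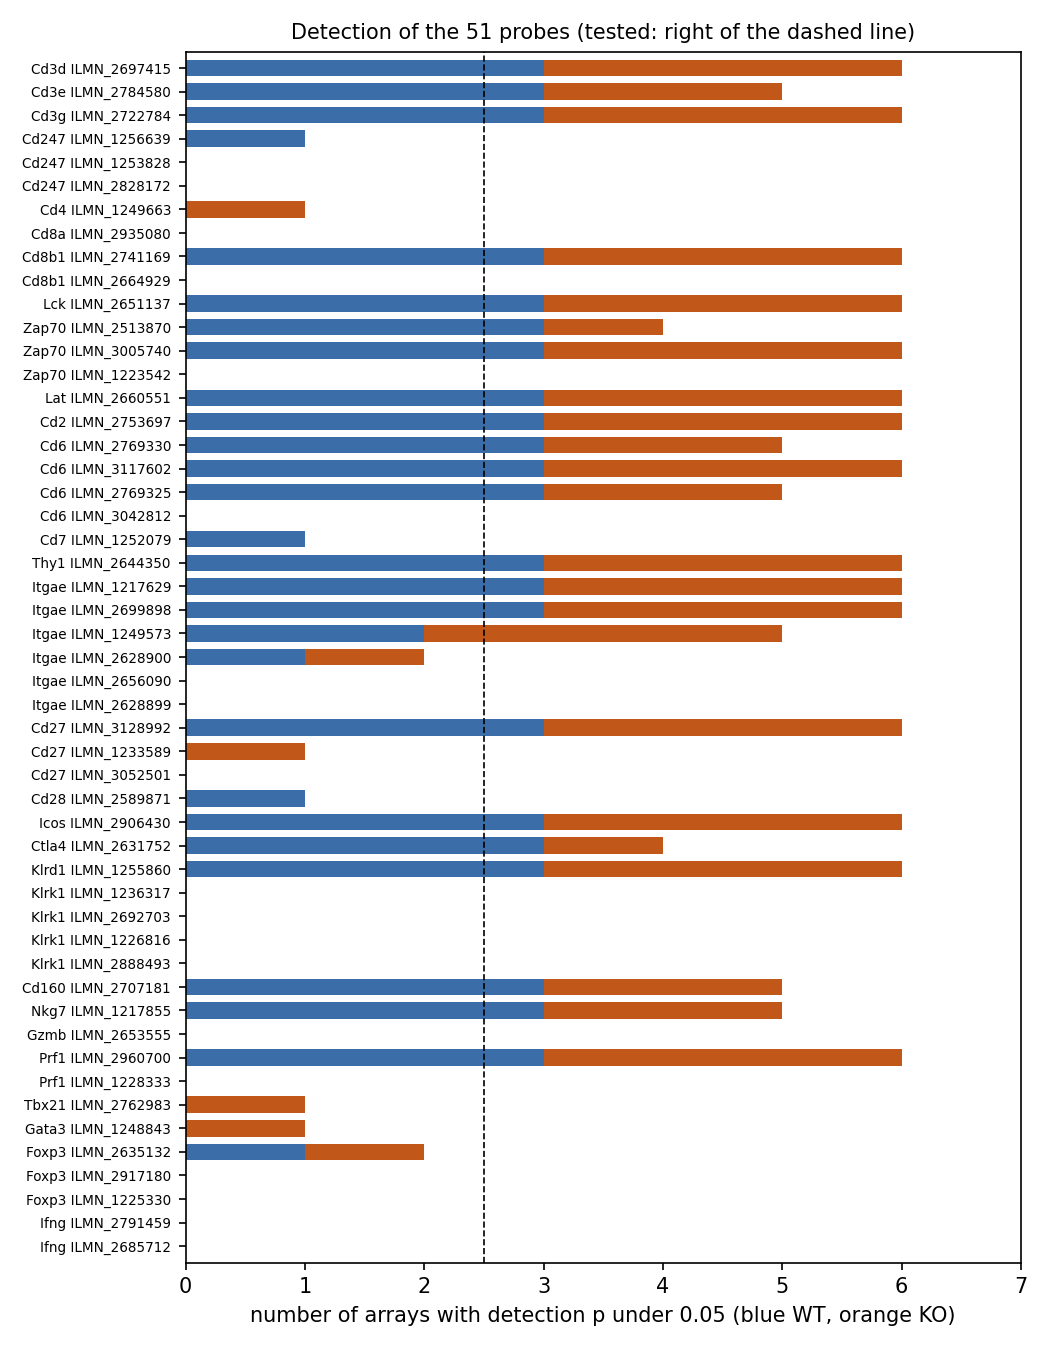
Horizontal bars give, for each of the 51 probes, the number of arrays with a detection p-value under 0.05, WT in blue and KO in orange. The dashed line lies just below the minimum of 3 arrays, which 23 probes reach; all probes of the lineage regulators and interferon gamma lie to its left.

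The lineage regulators were at the detection limit. Tbx21 (T-bet, the regulator of type 1 T cells) and Gata3 (the regulator of type 2 T cells) each had a detected signal on 1 KO array and on 0 WT arrays. Of the 3 probes of Foxp3, which defines regulatory T cells, the brightest was detected on 1 WT and 1 KO array and the others on none. Neither probe of Ifng, the type 1 cytokine interferon gamma, was detected on any array. No difference in these 4 genes was detectable at this signal. The same holds for the coreceptor Cd4 (detected on 0 WT and 1 KO arrays), the coreceptor chain Cd8a, the activating receptor gene Klrk1 with 4 probes and the granzyme gene Gzmb, all 3 undetected on every array. Cd247, the receptor's zeta chain, the costimulatory receptor Cd28 and the surface protein Cd7 were each detected on 1 WT array and 0 KO arrays.

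Of the 18 genes with a tested probe, taken by their brightest probe, 7 fell and 0 rose in miR-21 KO. They were the receptor chains Cd3d and Cd3g, the kinase Lck, the receptors Cd27 and Ctla4, the NK receptor chain Klrd1 and the granule protein Nkg7. Over all tested probes of the array, 7.55 percent fell and 7.53 percent rose, against 7 of 23 probes fallen here. The median difference was -0.75 over the 18 genes and 0.03 over all genes tested. An unadjusted p under 0.05 was found for 13 of the 18 genes and for 33.5 percent of all genes tested. All KO arrays lay below all WT arrays for 8 of the 18 genes and for 10 of the 23 probes, where 17 percent of all tested probes had this pattern. The number of probes that fell depended on single arrays. Leaving out WT replicate 1, 2 or 3 gave 2, 14 or 1 probes, and leaving out KO replicate 1, 2 or 3 gave 2, 1 or 7. Testing all probes of the array without the detection filter left 2 of 51 past the threshold, and without background correction 1 of 23, Klrd1, passed. In bulk tissue, fewer cells of a type and less RNA per cell cannot be told apart, which holds for each gene that follows.

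**Figure D2:**
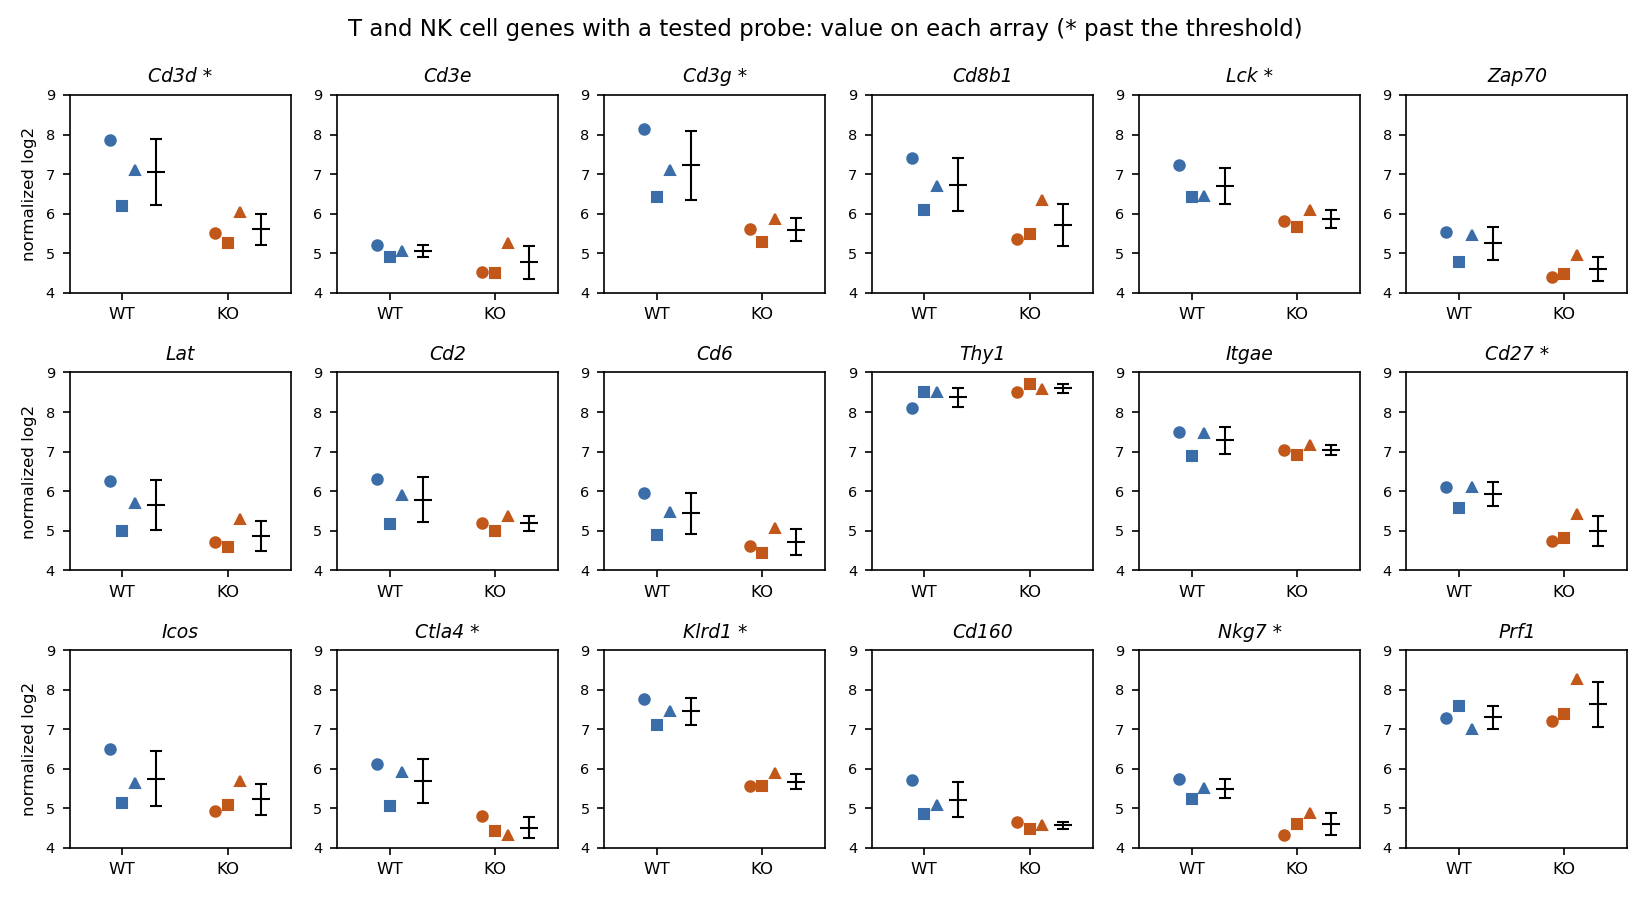
Each panel gives 1 gene with a tested probe (its brightest), the vertical axis the normalized log2 intensity and each point 1 array, with circles, squares and triangles for replicates 1, 2 and 3; the bar beside each group is its mean ± SD (n = 3). Genes past the threshold carry an asterisk; in most panels WT replicate 1 is the highest point and WT replicate 2 the lowest of the WT points.

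The receptor chains Cd3d and Cd3g fell, and Cd3e did not pass the test. Cd3g, the CD3 gamma chain, read 8.15, 6.42 and 7.11 in WT and 5.62, 5.29 and 5.88 in KO (replicates 1, 2 and 3 in that order, as throughout). All KO arrays lay below all WT arrays, and WT replicate 1 stood highest. The group means were 7.23 ± 0.87 (SD, n = 3) in WT and 5.60 ± 0.29 in KO, a 3.09-fold decrease (log2 difference -1.63 ± 0.37 SE, adjusted p = 0.0223). In the deposited intensities, before normalization, this probe read 389.5, 189.6 and 163.5 in WT and 138.8, 124.5 and 123 in KO. Cd3d, the CD3 delta chain, read 7.87, 6.20 and 7.11 in WT and 5.51, 5.27 and 6.04 in KO. Its order of arrays was like that of Cd3g, with WT replicate 2 only slightly above KO replicate 3, and it fell 2.74-fold (-1.45 ± 0.37, adjusted p = 0.0316). Cd3e, the CD3 epsilon chain, was dim, at 5.20, 4.90 and 5.05 in WT and 4.54, 4.51 and 5.25 in KO, where 2 of 3 arrays detected it. Its groups overlapped, since KO replicate 3 had the highest value of all, and its difference was -0.28 ± 0.21 (adjusted p = 0.390).

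The calls for both CD3 chains depended on single arrays. Cd3g did not pass with WT replicate 3 left out (adjusted p = 0.0607), nor without KO replicate 1 (0.0592) or KO replicate 2 (0.0870), with differences of -1.68, -1.64 and -1.47. Cd3d did not pass with WT replicate 1 left out (adjusted p = 0.0748), nor without WT replicate 3 (0.0883), KO replicate 1 (0.0856) or KO replicate 2 (0.111), with differences from -1.05 to -1.43, and an offset of 50 gave 0.0515.

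Cd3g, Cd3d and Cd3e lie beside one another on chromosome 9, with Cd3g and Cd3d read outward from a shared stretch. The 250 bases before their starts, from RefSeq (GRCm38.p6), are printed because 2 of these 3 neighbours fell together. For Cd3d and Cd3e the start used lay inside the annotated gene, which begins at 44981769 and 45009663. The last bases of those 2 windows therefore belong to the gene itself. The windows of Ctla4 and Nkg7, which fell as well, follow as examples. Lck and Cd27 also fell and are not printed. Of the 2 Lck promoters, the first held 3 ETS, 1 RUNX and 1 T-box match and the second 1 ETS and 1 T-box match. The Cd27 window held no match to any of the 5 motifs below. Capitals mark matches on either strand to 5 motifs of transcription factor families active in lymphocytes. The letters searched for ETS factors were AGGAAG. For RUNX factors they were TGTGGT, and for GATA factors AGATAA. The T-box letters were TCACAC. For TCF and LEF factors they were CTTTGA. A match on the other strand appears as the reverse complement, CTTCCT for ETS, and no match overlapped another.
Cd3g, chr9:44980432-44980681, minus strand: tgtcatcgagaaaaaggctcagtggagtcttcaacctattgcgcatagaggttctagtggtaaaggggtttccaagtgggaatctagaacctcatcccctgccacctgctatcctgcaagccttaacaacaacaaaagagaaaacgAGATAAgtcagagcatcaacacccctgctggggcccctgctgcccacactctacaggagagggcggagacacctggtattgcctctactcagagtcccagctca
Cd3d, chr9:44981536-44981785, plus strand: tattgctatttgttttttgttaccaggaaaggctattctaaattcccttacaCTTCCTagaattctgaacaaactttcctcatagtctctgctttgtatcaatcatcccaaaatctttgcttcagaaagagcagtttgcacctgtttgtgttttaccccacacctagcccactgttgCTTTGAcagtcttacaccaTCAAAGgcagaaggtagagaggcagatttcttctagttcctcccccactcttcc
Cd3e, chr9:45009612-45009861, minus strand: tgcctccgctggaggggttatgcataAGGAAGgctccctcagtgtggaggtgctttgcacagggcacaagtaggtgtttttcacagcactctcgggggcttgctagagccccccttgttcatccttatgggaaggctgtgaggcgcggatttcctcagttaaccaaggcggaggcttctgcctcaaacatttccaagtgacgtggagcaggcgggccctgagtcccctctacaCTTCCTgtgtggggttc
Ctla4, chr1:60908775-60909024, plus strand: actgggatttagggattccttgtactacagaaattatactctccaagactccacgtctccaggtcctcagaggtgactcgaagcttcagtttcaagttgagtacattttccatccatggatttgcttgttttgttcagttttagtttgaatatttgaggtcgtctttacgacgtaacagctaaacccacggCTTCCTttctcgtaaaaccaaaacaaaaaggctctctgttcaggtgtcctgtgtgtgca
Nkg7, chr7:43436888-43437137, plus strand: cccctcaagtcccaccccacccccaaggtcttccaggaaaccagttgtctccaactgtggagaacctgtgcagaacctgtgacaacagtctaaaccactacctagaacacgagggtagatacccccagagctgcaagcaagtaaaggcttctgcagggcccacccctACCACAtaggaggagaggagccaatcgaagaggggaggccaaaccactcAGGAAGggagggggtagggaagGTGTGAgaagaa

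The promoter table held 24 promoters for 19 of the 29 genes, and none for Klrd1. The ETS letters occurred in 15 of the 24 (62.5 percent), and in 29.5 percent of all 32851 promoters over the same window. Promoters of genes with a tested probe held them in 12 of 15 (80 percent), and those of genes that fell in 5 of 7 (71.4 percent). The RUNX letters occurred in 8 of 24 (33.3 percent, against 14.0 percent of all) and the T-box letters in 6 of 24 (25 against 12.3 percent). GATA letters were found in 2 of 24 (8.3 against 10 percent) and TCF/LEF letters in 3 of 24 (12.5 against 13.8 percent). In the printed set, Cd3d, Ctla4 and Nkg7 each hold 1 ETS match, Cd3e holds 2 and Cd3g none, so the letters did not separate the chains that fell from the one that did not pass. These matches describe the letters only, and binding was not measured.

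Cd8b1 was the only coreceptor gene with a tested probe, and it did not pass. The beta chain of CD8, which cytotoxic T cells use to hold MHC class I, read 7.41, 6.09 and 6.71 in WT and 5.36, 5.48 and 6.34 in KO. KO replicate 3 lay above WT replicate 2, so the groups overlapped. The difference was -1.01 ± 0.34 (2.01-fold, adjusted p = 0.0776), and it passed when WT replicate 2 (-1.33, adjusted p = 0.0277) was left out, and likewise with KO replicate 3 left out (-1.31, adjusted p = 0.0411). The second Cd8b1 probe was detected on no array.

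Among the proximal signalling genes Lck fell, and Zap70 and Lat had differences of like size that did not pass. Lck read 7.22, 6.42 and 6.45 in WT and 5.82, 5.66 and 6.11 in KO, without overlap. It fell 1.79-fold (-0.84 ± 0.23, adjusted p = 0.0400). Lck no longer passed once WT replicate 1 was left out (-0.57, adjusted p = 0.0904), nor without WT replicate 3 (0.0617), KO replicate 1 (0.101) or KO replicate 2 (0.142), with median scaling (0.150) and with an offset of 50 (0.0572). Lat, the membrane adaptor, read 6.25, 5.01 and 5.69 in WT and 4.72, 4.60 and 5.31 in KO, with a difference of -0.77 ± 0.30 (adjusted p = 0.112). Again KO replicate 3 lay above WT replicate 2. The brighter tested probe of Zap70, ILMN_2513870, was detected on 1 of 3 KO arrays and gave -0.65 ± 0.23 (adjusted p = 0.0873). The other tested probe, ILMN_3005740, was detected on all 6 arrays but read only 4.55 to 4.92 and gave -0.18 ± 0.14 (adjusted p = 0.398), and the remaining Zap70 probe was not detected.

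Of the costimulatory genes Cd27 and Ctla4 fell and Icos did not pass. Cd27, a TNF receptor family member that sustains T cell memory, read 6.11, 5.57 and 6.10 in WT and 4.73, 4.82 and 5.44 in KO. The groups did not overlap, although KO replicate 3 came close to WT replicate 2, and the decrease was 1.91-fold (-0.93 ± 0.23, adjusted p = 0.0272). Its other 2 probes were detected on 1 of 6 arrays and on none. Ctla4, an inhibitory receptor of activated and regulatory T cells, read 6.11, 5.06 and 5.91 in WT and 4.81, 4.42 and 4.32 in KO, where 1 of 3 arrays detected it. It fell 2.27-fold (-1.18 ± 0.26, adjusted p = 0.0209), and KO replicate 3 was here the lowest of the KO arrays. Icos, a CD28 relative needed for follicular helper T cells, read 6.49, 5.13 and 5.64 in WT and 4.94, 5.08 and 5.68 in KO. Its groups overlapped widely and its difference was -0.52 ± 0.33 (adjusted p = 0.304).

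Cd27 did not pass with WT replicate 1 left out (adjusted p = 0.0836), nor without WT replicate 3 (0.0843), KO replicate 1 (0.0852) or KO replicate 2 (0.102), and with median scaling (0.0604). Ctla4 did not pass without WT replicate 1 (0.0651), WT replicate 3 (0.0716), KO replicate 2 (0.0813) or KO replicate 3 (0.0522).

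T cell surface and adhesion genes did not pass for any of the 4 tested members with limma, of which 2 had an unadjusted p under 0.05, against 33.5 percent of all genes tested. Cd2, an adhesion receptor, read 6.30, 5.17 and 5.91 in WT and 5.20, 4.99 and 5.36 in KO, a difference of -0.61 ± 0.26 (adjusted p = 0.143). Cd6, a scavenger-type receptor of T cells, had 3 tested probes, at -0.73 ± 0.27 (adjusted p = 0.0944), -0.67 ± 0.23 (0.0823) and -0.38 ± 0.21 (0.249). The second of these, ILMN_3117602, was the only Cd6 probe whose groups did not overlap. Itgae encodes the alpha chain of the integrin that binds E-cadherin and holds T cells in the epithelium. Its 2 bright probes read 7.50, 6.89 and 7.47 in WT and 7.03, 6.92 and 7.18 in KO for ILMN_1217629, and 7.37, 6.97 and 7.26 against 6.89, 6.94 and 6.83 for ILMN_2699898. Their differences were -0.25 ± 0.19 (adjusted p = 0.401) and -0.31 ± 0.15 (adjusted p = 0.180), and the dimmest tested probe, ILMN_1249573, gave -0.08 ± 0.16 (adjusted p = 0.756). Thy1, a glycoprotein of mouse T cells that fibroblasts and neurons also carry, read 8.10, 8.51 and 8.51 in WT and 8.50, 8.71 and 8.59 in KO. Its difference of 0.22 ± 0.16 did not pass (adjusted p = 0.366), and WT replicate 1, the highest array for most members, was here the lowest.

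**Figure D3:**
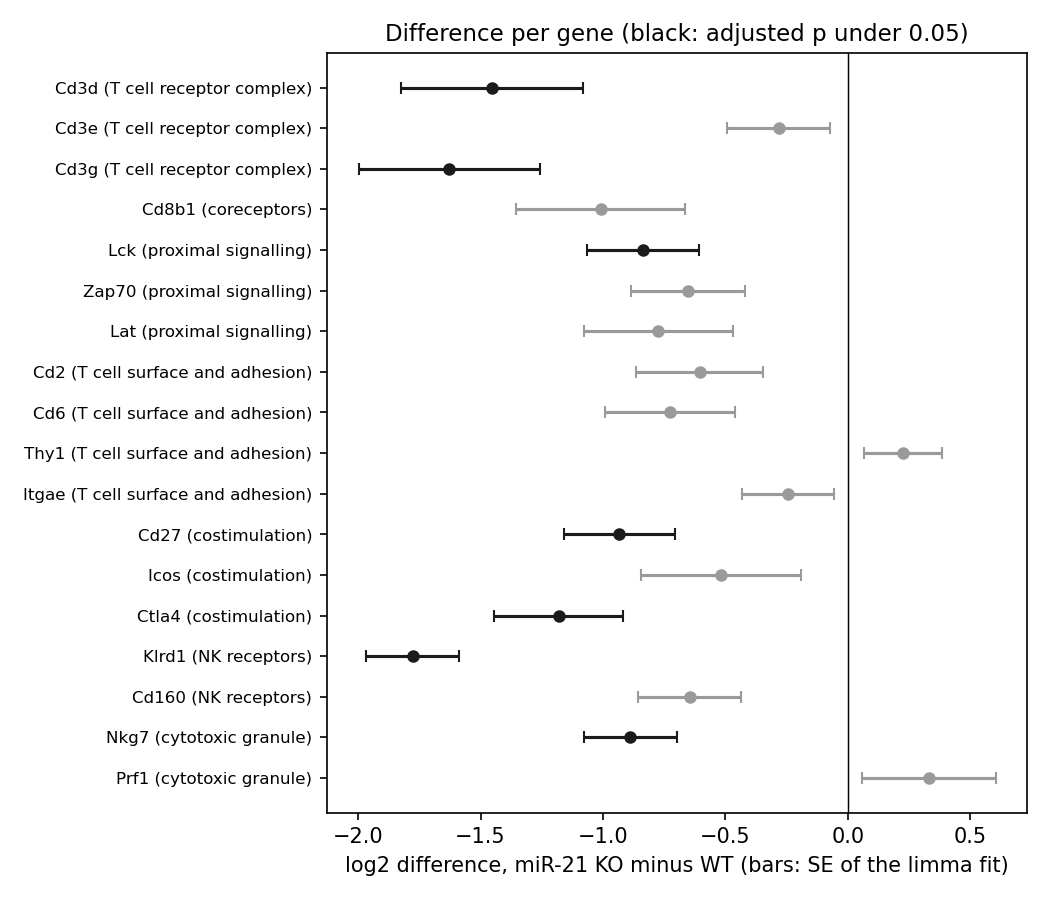
Points give the log2 difference, miR-21 KO minus WT, for the brightest tested probe of each of 18 genes, with bars for the SE of the limma fit on 3 arrays per group; black points passed the threshold. Klrd1 lies farthest to the left at -1.78, and Thy1 (0.22) and Prf1 (0.33) are the only points right of 0.

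Klrd1 had the largest decrease and the smallest adjusted p of the 23 tested probes. It encodes CD94, which pairs with NKG2 chains into receptors of NK cells and of some cytotoxic T cells for a nonclassical MHC class I molecule. Its probe read 7.77, 7.11 and 7.46 in WT and 5.56, 5.56 and 5.89 in KO. The groups were clearly apart, with the lowest WT array more than 1 log2 unit above the highest KO array. The means were 7.45 ± 0.33 (SD, n = 3) and 5.67 ± 0.19, a 3.43-fold decrease (-1.78 ± 0.19 SE, adjusted p = 0.00129). In the deposited intensities it read 315.9, 256.9 and 186.6 in WT and 136.5, 134.3 and 123.4 in KO. It was the only member that passed under all 17 alternatives, with adjusted p from 0.000222 to 0.0201. Cd160, a receptor of NK cells and intraepithelial T cells, read 5.71, 4.86 and 5.09 in WT and 4.65, 4.48 and 4.58 in KO, where 2 of 3 arrays detected it. Its groups did not overlap, and its difference of -0.65 ± 0.21 missed the threshold (adjusted p = 0.0680).

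Of the 2 granule genes with a tested probe, Nkg7 fell and Prf1 did not pass. Nkg7, a granule membrane protein of NK and cytotoxic T cells, read 5.74, 5.25 and 5.51 in WT and 4.33, 4.60 and 4.89 in KO, where 2 of 3 arrays detected it. It fell 1.85-fold without overlap (-0.89 ± 0.19, adjusted p = 0.0184). Nkg7 no longer passed when a single array was left out, whether WT replicate 1 (adjusted p = 0.0607), WT replicate 3 (0.0549), KO replicate 1 (0.0590) or KO replicate 2 (0.0717), and median scaling gave 0.0631. Prf1, the pore-forming protein perforin, read 7.29, 7.58 and 7.01 in WT and 7.22, 7.38 and 8.28 in KO. KO replicate 3 alone stood above the rest, and the difference of 0.33 ± 0.27 did not pass (adjusted p = 0.436). The second Prf1 probe was detected on no array, so a single probe stands for this gene.

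Within each group the members followed a common order of arrays in the normalized values. WT replicate 1 was the highest of the WT arrays for 16 of the 18 tested genes and WT replicate 2 the lowest for 16. KO replicate 3 was the highest KO array for 15. WT replicate 2 lay above all KO arrays for 8 genes and below KO replicate 3 for 10. The mean level of the 18 genes, each set relative to its own 6-array mean, was 0.78, -0.04 and 0.39 in WT and -0.50, -0.55 and -0.08 in KO. WT replicate 2 and KO replicate 3 thus lay close together, and WT replicate 1 and the other 2 KO arrays marked the ends. The deposited intensities, before normalization, had another order. Replicate 3 was the dimmest array of each group, with a median intensity of 97 in WT and 98.3 in KO. Klrd1 there read 315.9, 256.9 and 186.6 in WT and 136.5, 134.3 and 123.4 in KO, lowest on replicate 3 in both groups.

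Other genes of T and NK cells were examined from a list of further signalling, transcription, homing, cytotoxic, cytokine and GIMAP genes. Of 115 measured, 63 were tested, 24 fell and 0 rose, with a median difference of -0.63. Over all genes tested by their brightest probe, 7.62 percent fell and 8.06 percent rose. The T cell receptor signalling genes fell for 10 of 20 tested members, the homing and cytokine receptors for 3 of 9, the NK and cytotoxic genes for 3 of 7, cytokines and checkpoint receptors for 4 of 10, transcription factors for 2 of 11 and GIMAP GTPases for 2 of 6. The count of 24 became 10, 34 or 8 when WT replicate 1, 2 or 3 was left out, and 10, 3 or 14 when KO replicate 1, 2 or 3 was. Genes of this list that B cells, myeloid cells or epithelium also express are not markers of T cells. The group named T cell receptor signalling holds such genes too, Cd53 among those that fell, so its count does not describe T cells alone.

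The 10 genes with the smallest adjusted p among those 24 included Ccl5, Tnfrsf4, Il7r, Tyrobp, Cd53, Malt1, Sh2d2a, Rasgrp1 and Stat4. Stat4, which carries interleukin 12 signals in T and NK cells, read 7.15, 5.63 and 6.23 in WT and 4.66, 4.74 and 5.09 in KO (-1.51 ± 0.33, adjusted p = 0.0194). Ccl5, a chemokine of cytotoxic lymphocytes, read 6.62, 6.23 and 6.97 in WT and 5.37, 5.23 and 5.20 in KO (-1.33 ± 0.19, adjusted p = 0.00515). Its SD was 0.37 in WT and 0.09 in KO. Tnfrsf4, the costimulatory receptor OX40, read 5.83, 5.64 and 5.77 in WT and 5.03, 4.44 and 4.57 in KO, detected on 2 of 3 KO arrays (-1.07 ± 0.18, adjusted p = 0.00833). Il7r, the receptor for the survival cytokine interleukin 7, read 7.26, 6.60 and 6.63 against 5.69, 5.53 and 5.78. Sh2d2a, an adaptor that binds Lck, was detected on the WT arrays only, through which it entered the test, and was at least 1.52-fold lower in KO. The differences of 4 more were -1.32 for Tyrobp, -1.72 for Cd53, -1.02 for Malt1 and -1.37 for Rasgrp1. Rora, a transcription factor gene active in other mucosal cells as well, had the largest difference above 0 of the list, 0.68 ± 0.21 (adjusted p = 0.0590), and was chosen after its values were seen.

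Among markers of other cell types, those of B cells moved with the T and NK cell genes, with a median difference of -2.11. The median of the 3 tested neutrophil genes was also below 0, at -1.51, and their counts are given below. The medians of adipocyte (2.72), smooth muscle (0.76) and endothelial and fibroblast genes (0.47) lay above 0. Of 12 measured B cell genes 9 were tested and 8 fell, where 7.62 percent of all genes tested fell. Their summed normalized intensity (offset removed) ranged from 731.1 to 3778 on WT arrays and from 183.9 to 250 on KO arrays, and each was detected on at least 1 array. Cd79b, a B cell receptor chain, had a difference of -2.65 ± 0.59 (adjusted p = 0.0212), and Ms4a1 (CD20) was detected on 2 WT arrays and 0 KO arrays. The arrays stood in the same order for the B cell mean level in WT, 1.91, 0.21 and 0.77 on replicates 1 to 3, while the KO arrays lay between -1.03 and -0.87. Whether B cell content has a part in the T and NK cell differences was not tested.

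The counts in this paragraph stand beside shares of 7.62 percent fallen and 8.06 percent risen over all genes tested. Among 18 macrophage and dendritic cell genes 12 were tested and 2 fell, with sums of 5561 to 11210 in WT and 4090 to 5893 in KO. A large part of each sum came from Lyz2, which read 12.94, 11.26 and 12.32 in WT and 10.63, 10.74 and 11.35 in KO and did not pass. Of that list Itgax, Itgam, Flt3, Zbtb46, Xcr1 and Cd209a were detected on no array, and the 2 genes that fell were Mrc1 (-0.78 ± 0.18, adjusted p = 0.0235) and Aif1 (-0.92 ± 0.24, adjusted p = 0.0341). The other 10 tested genes, Adgre1 and Csf1r among them, had differences from -1.27 (Lyz2) to 0.26 (Cd163), and the median of all 12 was -0.20. Of 7 neutrophil genes 3 were tested and 0 fell with limma, where all 3 had an unadjusted p under 0.05 (33.5 percent of all genes tested). Their sum was 187.9 to 809.9 in WT and 54.31 to 148.8 in KO, highest on WT replicate 2, and Cxcr2 was detected on no array. In the colon epithelium list 1 of 10 rose (Krt18) and 2 fell, Vil1 (-1.15 ± 0.17, adjusted p = 0.00646) and Krt20 (-0.63 ± 0.13, adjusted p = 0.0159). Its sums were 28730 to 30400 in WT and 26880 to 30500 in KO and came largely from Krt8, so they do not show the decrease of Vil1. Adipocyte genes rose for 6 of 7 tested members, with sums of 422.5 to 3390 in WT and 6431 to 19060 in KO, and Fabp4 was detected on no array. Smooth muscle sums were 21220 to 40380 in WT and 37920 to 54000 in KO, lowest on WT replicate 1, and 1 of 7 genes, Cnn1, rose, while all 7 had an unadjusted p under 0.05. Of 11 endothelial and fibroblast genes 10 were tested and 4 rose, with sums of 10870 to 14230 in WT and 13840 to 14560 in KO, and Kdr was detected on no array. Plasma cell genes, of which 1 of 7 fell, had sums of 3005 to 3818 in WT and 3120 to 3707 in KO. Mrc1, Aif1, Lyz2, Cd163, Cnn1, Krt18, Slc26a3 and Acta2 were named after their values were seen. The part of these tissue differences in the results for T and NK cell genes was not tested.

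**Figure D4:**
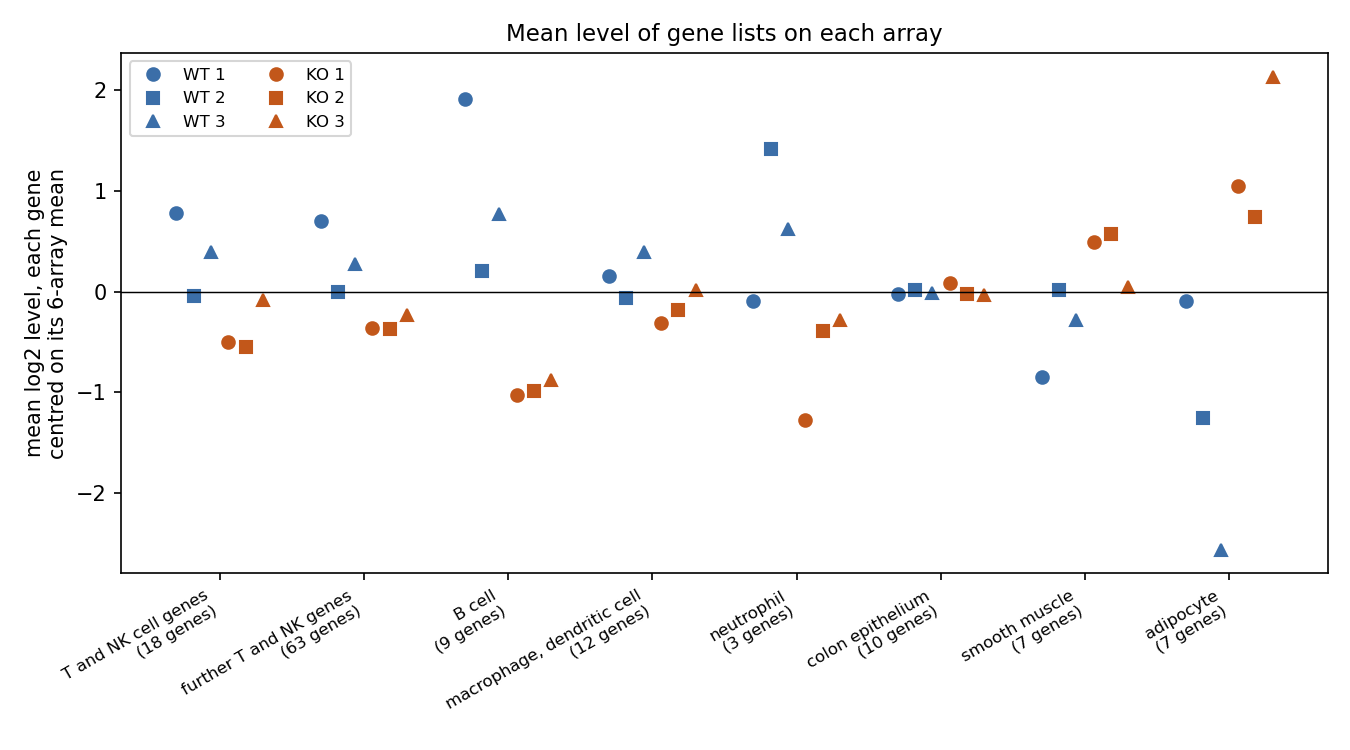
The vertical axis is the mean normalized log2 level of each gene list on each array, with every gene set relative to its own 6-array mean; blue points are WT and orange points KO, with circles, squares and triangles for replicates 1, 2 and 3. The 18 T and NK cell genes, the 63 further ones and the B cell list share the order of the WT arrays in their means, with replicate 1 highest and replicate 2 lowest, and the B cell list has the wider gap between groups.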

How the data were processed

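Each probe has 4 values per array in the table the authors deposited: per the file headers, these are an intensity, its detection p-value, the standard error over beads and the bead count. Another 12 columns of per-sample values were not used. The intensity values were not normalized when deposited. The detection p-value, deposited beside them, compares a probe with negative controls. Deposited standard errors and bead counts, as other units, only described precision. The tested member probes had 15 to 56 beads per array (median 36). Their median bead standard error was 2.87 percent of the deposited intensity, background included, so it was a larger share of the signal above background. The log2 values that the authors deposited separately had been normalized, with medians of 5.82 to 5.83; limma is named in the submitters' processing notes with no version. These values correlated at r of at least 0.9998 with those computed here (median difference 0.04), which settled their scale and direction; how their 18010 probes were kept is unknown.

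Intensities were processed with neqc in limma 3.58.1 (R 4.3.3): normexp correction with negative controls inferred from detection p-values, quantile normalization, offset 16, log2. Probes with a detection p under 0.05 on at least 3 arrays were fitted with lmFit and eBayes on all 6 arrays with no covariate. The fit was tested on simulated data. Members were taken by the deposited symbol; for other genes, symbols were updated to GRCm38.p6 by Entrez ID (23788 probes) or accession (685), 1224 kept theirs, and the brightest probe stood for a gene. All members are named; from the further list, the 10 genes with the smallest adjusted p are named, except an item not reported here. Members and lists were chosen with earlier results of these data known. A permutation of 3 arrays against 3 cannot reach the threshold, so single genes rest on limma. The number of arrays limits the precision. Alternatives covered background, normalization, offset, filter, variance model, weights, replicate block and left-out arrays. Promoters came from RefSeq; no coordinates come from the arrays, for which no source names a build.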

Additional observations from a re-analysis of the deposited data

How the results depend on the processing

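All 7 members that fell kept a negative difference under the 17 alternatives, each where its probe was tested. Their groups did not overlap, so leaving out or weighting arrays could not have reversed that sign. Changes of filter, variance model or replicate block left the difference itself unaltered. The constant sign under those settings is therefore no evidence of stability. Only Klrd1 stayed past the threshold in each. Over all 23 tested probes, 321 of 383 comparisons kept direction and side of the threshold, 43 lost a call, 17 gained one and 2 reversed. The reversals were the dim Itgae probe ILMN_1249573 without WT replicate 1 (0.0398, with -0.2018 to 0.0398 over the left-out arrays) and Prf1 on the arrays of replicates 1 and 2 only (-0.14), and neither value had passed. Leaving out single arrays moved the count of member probes past the threshold from 7 to between 1 and 14, that of the further T and NK genes from 24 to between 3 and 34, and that of all probes from 2071 to between 460 and 2116. Without background correction 1 member probe and 8 further genes passed, with median scaling 4 and 13 (536 probes in all), with no filter on dim probes 2 and 6, and on the brighter arrays of replicates 1 and 2 only 3 and 5 (839 in all). With array weights 14 member probes and 3772 probes in all passed. Median scaling moved the share of lower among all called probes to 343 of 536. With the replicate block 9 member probes, 28 further genes and 2154 probes in all passed. The replicate numbers were not shown to pair the samples, since same-numbered arrays had deviations correlated at 0.01, 0.15 and 0.06, and not every array correlated best with its own number. The files give no slide, so a slide block was not run. The causes of these shifts were not tested. Signal limits what can be said of the 28 untested probes.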
